A study of Xenopus laevis x Xenopus muelleri with 6 samples.

Results

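Membrane traffic and small GTPase genes were read by 216 probe sets for 171 gene symbols, of 5790 symbols on the 6798 probe sets that have exactly 1 symbol and 11485 probe sets in all. They were chosen by the letters of their symbols, among them Rab, Arf, Arl, Sar1 and Cdc42 GTPases, the COPI and COPII coats, clathrin and its adaptors, SNAREs, tethers, sorting nexins, retromer and other vps genes, ESCRT proteins, p24 receptors and the Sec proteins of the ER. Of the 216 probe sets, 4 were taken by their letters only, since racgap1.S, snapc1.L, snapc2.L and vps72.S code for proteins with other roles (a regulator of cell division, a complex that starts transcription of small nuclear RNAs, and a chromatin protein). X. laevis keeps many genes as L and S copies from its ancestral genomes, and the 171 symbols stand for 153 genes once the copy is left out.

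The samples were 3 testes of sex-reversed animals and 3 normal testes, all from sexually mature hybrids of a Xenopus laevis mother (Cape of South Africa) and a Xenopus muelleri father (Swaziland), raised from the egg in standard conditions. The labels give no age, no genetic sex and no way by which sex was reversed. The labels call the 3 samples of each group biological replicates but do not say that each came from a separate animal, so a p-value here measures only how these samples vary, which may be technical. Whole testis RNA was hybridised, 1 sample per Affymetrix array, and in such bulk tissue fewer cells of a type and less RNA per cell cannot be told apart.

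Vesicles carry proteins between the ER, the Golgi, endosomes and the cell surface. Small GTPases of the Rab, Arf and Sar families act as switches that load coats onto a membrane or call in tethers, coat proteins (COPII, COPI, clathrin) bend the membrane and pick cargo, and SNAREs fuse the vesicle with its target. Retromer and sorting nexins return receptors from endosomes, and ESCRT proteins cut membranes from the inside and also act in the last step of cell division. In the testis of vertebrates, this machinery builds the acrosome from Golgi vesicles, removes spermatid cytoplasm and lets Sertoli cells remodel their junctions.

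All values are log2 expression values made by RMA, and differences are sex-reversed minus normal testis. The hybridisation strength differs between probes, so levels are compared between arrays for 1 probe set. A low place among all probe sets (a low percentile or a value under the array medians) serves only as a caution. Signal over background was not measured; array medians lay between 5.25 and 5.31 and the lowest value of an array between 1.93 and 2.09. The probes follow X. laevis sequence, and how X. muelleri alleles bind them was not tested.

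Markers of the cell types a testis sample could hold were summed as the mean deviation of a list on each array. Of the germ cell and sperm markers looked for, 11 of 15 genes were measured, by 13 probe sets, 4 higher and 9 lower in sex-reversed testis. Their mean deviation was -0.19 to 0.13 in sex-reversed testis and -0.54 to 0.45 in normal testis, with the lowest value in normal replicate 2. The germ cell gene ddx4.L read 12.36 to 12.56 in sex-reversed testis and 12.35 to 12.75 in normal testis, but other genes of the list varied more. The RNA helicase gene ddx25.L read 6.26, 6.01 and 8.74 in sex-reversed testis, against 8.65, 3.85 and 8.98 in normal testis, and the sperm tail gene tekt4.S read 9.67, 10.03 and 10.20 in sex-reversed testis, against 10.07, 8.0 and 10.08 in normal testis. In the same list tekt1.L differed by -0.43 and spag6.L by 0.54, both with no overlap between the groups. Sertoli cell markers (5 of 7 genes, 8 probe sets, 3 higher and 5 lower) had a mean deviation of -0.24 to -0.00647 in sex-reversed testis and -8.95e-05 to 0.24 in normal testis. One probe set of the FSH receptor gene fshr.L differed by -0.65 and the other by 0.10, and those of the gap junction gene gja1.L by -0.36 and -0.15. The groups did not overlap for fshr.L at -0.65 and gja1.L at -0.36. The probe sets of dhh.L, gata4.S, dhh.S and sox9.S differed by 0.25, 0.19, -0.49 and -0.24. Of the 8 Sertoli probe sets, 4 lay below the 25th percentile of the mean level. These were dhh.L, dhh.S, gata4.S and the probe set of gja1.L at -0.15. Smooth muscle and peritubular markers had a mean deviation of 0.12 to 0.48 in sex-reversed testis and -0.36 to -0.12 in normal testis, with 9 of 11 probe sets higher. Skeletal muscle markers, with 4 of 5 probe sets higher, lay at 0.02 to 0.39 in sex-reversed testis and -0.29 to -0.16 in normal testis. Of the 4 interrenal genes looked for, only npy was measured, by 1 probe set each of npy.L and npy.S. These lay at 0.12 to 0.44 in sex-reversed testis and -0.52 to 0.10 in normal testis, and 1 of them was below the 25th percentile of the mean level. The lists of blood cells, leukocytes, oocytes, kidney and steroid cells overlapped between the groups. Of these lists 6 of 9, 3 of 5, 3 of 6, 2 of 5 and 1 of 5 genes were measured, so the overlap says little about these cells. All 3 leukocyte probe sets lay below the 25th percentile of the mean level. The oocyte gene zp4.S was higher by 1.07 with no overlap, and the other 3 oocyte probe sets were lower. The steroid cell gene cyp17a1.L was low in sex-reversed replicate 3, at 5.23 and 5.17 in its 2 probe sets, beside 8.14 or more in the other testes. The part of these cells in the values below was not tested.

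No membrane traffic or small GTPase probe set passed the test between sex-reversed and normal testis. In the limma fit over all 11485 probe sets, 0 of the 216 had a Benjamini-Hochberg adjusted p under 0.05, where 0% of all probe sets did; the smallest adjusted p among the 216 was 0.997. At an unadjusted p under 0.05 in limma, 2 probe sets were higher in sex-reversed testis (vps37b.L and snapc1.L) and 6 were lower (exoc5.L, rab14.S, copg2.S, arf1.L, snx1.L and ap3b1.L). That is 0.926% and 2.78% of the 216, beside 2.26% higher and 2.16% lower among all probe sets. The median log2 difference was -0.05 over the 216 and 0.01 over all probe sets. Means were higher in sex-reversed testis for 91 of the 216 and lower for 125, beside 5892 higher and 5593 lower among all probe sets. For 142 of the 216 (65.7%) the 95% interval excluded a change of 2-fold or more either way, against 62.5% of all probe sets. For 149 of the 216 (69.0%) the difference was smaller than the SD within groups, beside 71.8% of all probe sets. The members' SD within groups had a median of 0.31, beside 0.34 over all probe sets.

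The 3 arrays of one group lay above all 3 of the other, with means at least 0.5 apart, for 9 probe sets. In sex-reversed testis 3 of them were higher and 6 were lower (1.39% and 2.78% of the 216), beside 2.53% and 2.25% of all probe sets, so the share was near the background. With 1 array left out, fewer values have to separate and the share grew among all probe sets as well. Without sex-reversed replicates 1, 2 and 3 the counts were 16, 20 and 22 of the 216 (7.41%, 9.26% and 10.2%), beside 8.01%, 8.72% and 10.6% of all probe sets. Without normal replicates 1, 2 and 3 they were 26, 14 and 11 (12%, 6.48% and 5.09%), beside 9.06%, 9.98% and 10% of all probe sets.

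**Figure D1:**
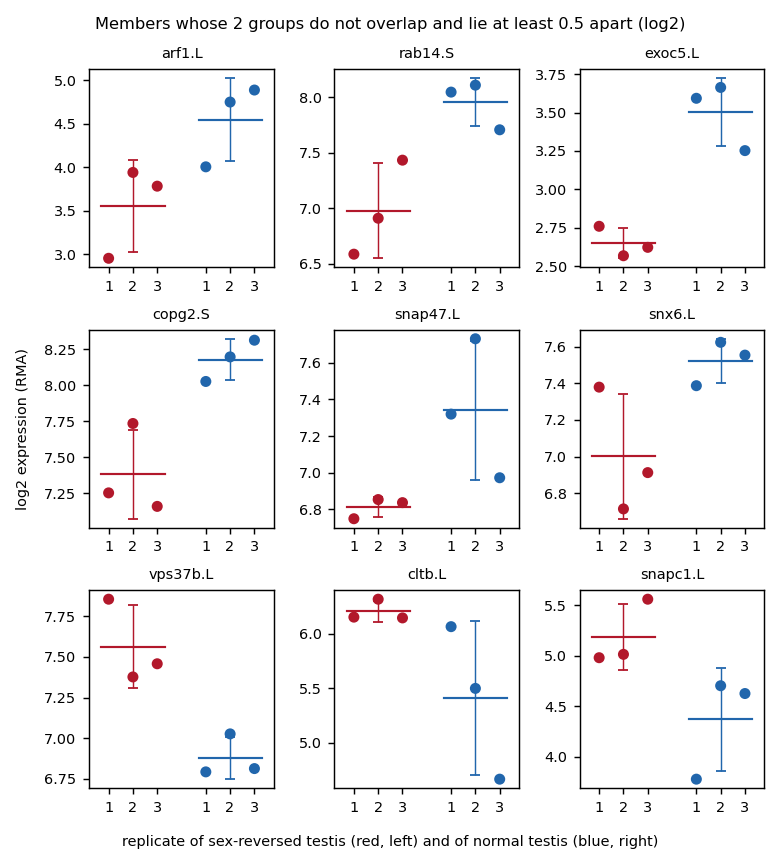
Log2 expression (y axes, RMA, scaled per panel) of the 9 probe sets whose groups do not overlap at a difference of at least 0.5, in 3 sex-reversed testes (red, left) and 3 normal testes (blue, right). Points are single arrays, horizontal lines group means and bars the SD; rab14.S is lower in each sex-reversed testis and vps37b.L higher, and no probe set passed after adjustment over all 11485.

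Among the GTPases, rab14.S and arf1.L had the lowest values in sex-reversed testis relative to normal testis. For rab14.S, a Rab of the route between Golgi and endosomes, the values were 6.59, 6.91 and 7.43 in sex-reversed replicates 1, 2 and 3, against 8.04, 8.11 and 7.71 in normal testis. The groups did not overlap, and the means of 6.98 ± 0.43 in sex-reversed and 7.95 ± 0.22 in normal testis (SD, n = 3 each) differed by -0.98, with a 95% interval of -1.62 to -0.33 and an adjusted p of 0.997 in limma. The probe set of arf1.L, the Arf that recruits COPI and Golgi adaptors, read 2.95, 3.94 and 3.78 in sex-reversed testis, against 4.01, 4.75 and 4.89 in normal testis. The highest sex-reversed value lay just under the lowest normal one, and all 6 values were below the array medians. The difference was -0.99 (95% interval -1.82 to -0.16) and was -0.69 without sex-reversed replicate 1.

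In sex-reversed testis 13 of the 28 Rab probe sets had higher means and 15 had lower ones (median -0.01, range -0.98 to 0.41). Rabs of the main routes had intervals that include 0. The late endosome Rab gene rab7a.L read 7.40, 7.15 and 7.13 in sex-reversed testis, against 7.35, 7.84 and 7.52 in normal testis, and the groups overlapped (difference -0.34, 95% interval -0.86 to 0.18). For rab11a.S, of recycling endosomes, the values were 4.95, 5.94 and 6.13 in sex-reversed testis, against 6.60, 6.04 and 6.11 in normal testis. Its difference of -0.58 (95% interval -1.40 to 0.24) was -0.21 without sex-reversed replicate 1, the lowest of the 6 arrays. The early endosome gene rab5a.L differed by 0.21 (95% interval -0.36 to 0.77) in one probe set and -0.01 (95% interval -0.69 to 0.67) in the other. The 3 probe sets of rab1a.L, which acts between ER and Golgi, gave 0.06, -0.34 and 0.30, all with intervals that include 0. The probe set at -0.34 lay below the 25th percentile of the mean level. Proteins that bind Rabs, with 5 probe sets, ranged from -0.35 to 0.37, the highest being rab11fip4l.L (95% interval -0.19 to 0.93). It too lay below that percentile.

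The 18 probe sets of Arf, Arl and Sar GTPases were 8 higher and 10 lower (median -0.07, range -0.99 to 0.43). Arf6 acts at the cell surface, and its probe sets gave -0.16 and 0.03 for arf6.2.L and 0.03 for arf6.S. The COPII switch sar1a.S differed by -0.24 (95% interval -0.96 to 0.48) and -0.17 (95% interval -0.70 to 0.36) in its 2 probe sets. For sar1b.L the difference was -0.36 (95% interval -1.03 to 0.31). That probe set and the one of arf6.2.L at 0.03 lay below the 25th percentile of the mean level. Proteins named for binding Arl GTPases had 6 probe sets, 1 higher and 5 lower, between -0.27 and 0.24, with arl14ep.L at -0.21. Their mean deviation was -0.48, 0.24 and 0.06 in sex-reversed replicates 1, 2 and 3, against 0.04, 0.04 and 0.11 in normal testis. Sex-reversed replicate 1 alone was thus low.

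The GTPase gene rhoa.L, a regulator of actomyosin contraction, read 9.13, 9.35 and 6.52 in sex-reversed testis, against 8.88, 9.43 and 9.07 in normal testis. Sex-reversed replicate 3 alone was low, and without it the difference of -0.79 was 0.12. The related rhoa.2.S read 8.10, 8.36 and 8.20 in sex-reversed testis, against 8.20, 8.16 and 7.73 in normal testis, with no low array (difference 0.19, 95% interval -0.33 to 0.72). The cell shape GTPase gene rhou.L differed by -0.33 and the Cdc42 effector gene cdc42ep2.L by -0.35, neither with an interval that excludes 0. The genes rac1, sec23a, sec31a and vps35 were looked for, but none of the 216 probe sets carries their symbols.

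**Figure D2:**
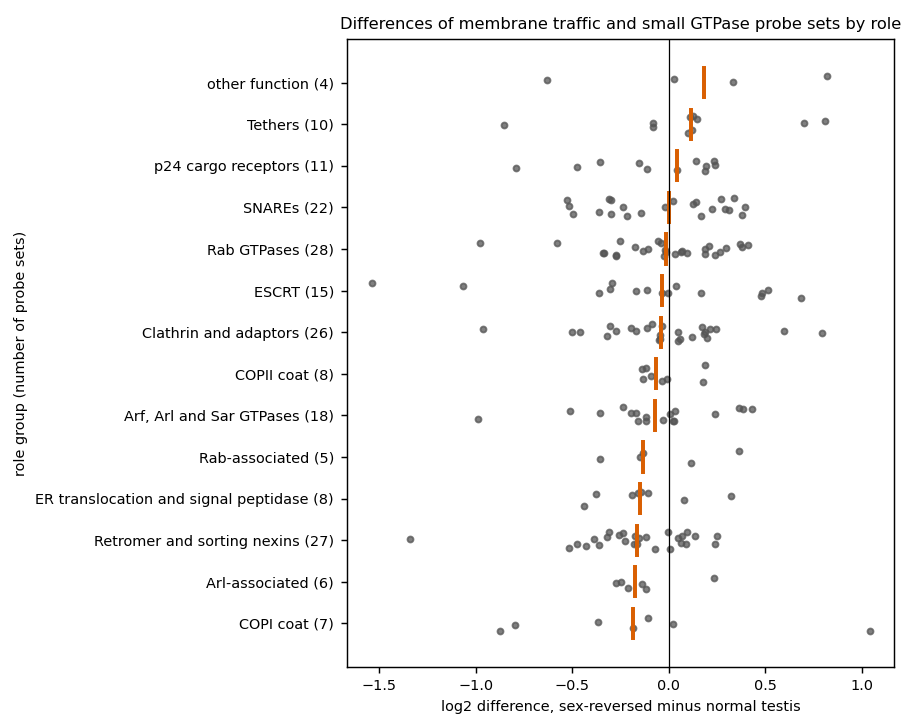
Log2 difference, sex-reversed minus normal testis (x axis), of each probe set in the role groups described in the text that have at least 3 probe sets (y axis, number of probe sets in brackets). Grey points are probe sets, spread vertically for clarity, and orange bars are group medians, which run from -0.19 for the COPI coat to 0.18 for the 4 genes of other function.

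Coat proteins of the early secretory route gave values close to 0 for COPII and wider ones for COPI. All 8 COPII probe sets had a 95% interval within 2-fold, and their differences ran from -0.14 to 0.19, with sec23ip.S, which codes for a partner of the COPII coat, at 0.18. Of the 8, sec24a.S and sec31b.L lay below the 25th percentile of the mean level, where a difference can be understated. The 7 COPI probe sets were 2 higher and 5 lower (median -0.19). For copg2.S, a gamma subunit of the COPI coat, the values were 7.25, 7.74 and 7.16 in sex-reversed testis, against 8.03, 8.20 and 8.31 in normal testis. Each sex-reversed testis lay below each normal one, and the difference was -0.80 (95% interval -1.35 to -0.25, adjusted p of 0.997 in limma). The alpha subunit gene copa.L read 7.32, 7.45 and 3.44 in sex-reversed testis, against 7.41, 3.72 and 3.96 in normal testis. It was thus high in 3 testes and low in 3, across both groups, and its difference of 1.04 had a 95% interval of -2.01 to 4.09. With 1 array left out that difference lay between 0.35 and 2.36, the higher value without sex-reversed replicate 3.

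The p24 receptors, which select cargo for these coats, had 11 probe sets, 6 higher and 5 lower (median 0.04). The lowest, tmed4.L, read 6.68, 9.40 and 9.01 in sex-reversed testis, against 9.07, 8.90 and 9.48 in normal testis. Sex-reversed replicate 1 alone was low, and the difference of -0.79 was 0.05 without it. Genes of protein entry into the ER and of signal peptidase had 8 probe sets, 2 higher and 6 lower (median -0.15). The one with the smallest p, the translocation factor gene sec63.S, differed by -0.44 (95% interval -1.02 to 0.14).

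Clathrin and adaptor probe sets numbered 26, 12 higher and 14 lower (median -0.04, range -0.96 to 0.79). The clathrin heavy chain gene cltc.L differed by 0.17, 0.18 and 0.05 in its 3 probe sets. The second of these was the tightest, with 9.84, 9.98 and 10.02 in sex-reversed testis, against 9.66, 9.90 and 9.75 in normal testis (95% interval of the difference -0.28 to 0.64). The light chain gene cltb.L read 6.15, 6.32 and 6.15 in sex-reversed testis, against 6.06, 5.50 and 4.67 in normal testis. The sex-reversed values lay close together above all normal ones, and the difference of 0.79 (95% interval -0.03 to 1.62) was 0.42 without normal replicate 3. For ap3b1.L, the beta subunit of the AP-3 adaptor of lysosome-related organelles, 1 probe set differed by -0.96 (95% interval -1.86 to -0.06). It read 2.62, 3.08 and 3.28 in sex-reversed testis, against 3.14, 4.54 and 4.18 in normal testis, all below the array medians, and the other probe sets of ap3b1.L gave -0.17 and 0.21. By its name the probe set at 0.21 is of a kind that may cross-hybridise.

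SNAREs were evenly split, with 11 probe sets higher and 11 lower and a median of 0.00. The SNARE gene snap47.L read 6.75, 6.85 and 6.84 in sex-reversed testis, against 7.32, 7.73 and 6.97 in normal testis. The groups did not overlap, and the difference was -0.53 (95% interval -1.11 to 0.05). The Golgi SNARE gene stx5.L differed by -0.14 (95% interval -0.95 to 0.66).

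Tethers, which catch a vesicle before it fuses, had 10 probe sets, 7 higher and 3 lower (median 0.11). The probe set with the smallest p of all 216 was exoc5.L, for a subunit of the exocyst that docks vesicles at the cell surface. It read 2.76, 2.57 and 2.62 in sex-reversed testis, against 3.59, 3.66 and 3.25 in normal testis. Each sex-reversed value lay below each normal one, and the difference was -0.85 (95% interval -1.35 to -0.35, adjusted p of 0.997 in limma). These values lie near the lowest of each array, so the size of the difference is uncertain.

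Retromer and sorting nexins had 27 probe sets, 9 higher and 18 lower (median -0.17, range -1.34 to 0.25). The lowest was snx1.L, a membrane-bending partner of retromer, with 4.83, 5.26 and 6.81 in sex-reversed testis, against 7.48, 7.05 and 6.41 in normal testis. Sex-reversed replicate 3 lay among the normal values, and the difference of -1.34 (95% interval -2.57 to -0.11, adjusted p of 0.997 in limma) was -1.93 without it. Its relative snx6.L had 1 probe set whose groups did not overlap, with 7.38, 6.71 and 6.91 in sex-reversed testis, against 7.39, 7.62 and 7.55 in normal testis. The gap between the groups there was small at sex-reversed replicate 1, the difference was -0.52 (95% interval -1.08 to 0.04), and the other probe sets of snx6.L gave 0.01, 0.07 and 0.06. By its name the probe set at -0.52 is of a kind that may cross-hybridise.

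ESCRT genes had 15 probe sets, 6 higher and 9 lower (median -0.03, range -1.54 to 0.69). The ESCRT-I subunit gene vps37b.L read 7.86, 7.38 and 7.46 in sex-reversed testis, against 6.79, 7.03 and 6.81 in normal testis. Each sex-reversed testis lay above each normal one, and the means of 7.56 ± 0.26 in sex-reversed and 6.88 ± 0.13 in normal testis (SD, n = 3 each) differed by 0.69 (95% interval 0.17 to 1.21, adjusted p of 0.997 in limma). Its other copy vps37b.S differed by -0.11. The ESCRT-III subunit gene chmp4b.L differed by 0.04 and -0.03 in its 2 probe sets, with intervals within 2-fold. Some probe sets of the ATPase genes that take ESCRT-III apart gave wider values. For vps4a.L the values were 3.31, 4.88 and 4.03 in sex-reversed testis, against 7.75, 4.46 and 4.62 in normal testis. Normal replicate 1 stood alone, and the difference of -1.54 was -0.47 without it. One probe set of vps4b.S differed by -1.07 (95% interval -2.31 to 0.18), or -0.59 without normal replicate 3. The other differed by -0.30 (95% interval -0.87 to 0.26).

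The single probe sets of snap91.S (a clathrin assembly protein), vps45.S (a regulator of SNAREs) and sec14l1.L (a lipid-binding protein) gave -0.16, -0.04 and -0.38. Of the genes with other roles, snapc1.L read 4.98, 5.01 and 5.56 in sex-reversed testis, against 3.78, 4.70 and 4.62 in normal testis. Its groups did not overlap, and the difference was 0.82 (95% interval 0.08 to 1.56), or 0.52 without normal replicate 1.

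A range of at least 2 on the log2 scale over the 6 arrays was reached by 13 probe sets (6.02%), beside 8.18% of all probe sets. The largest break in their 6 values set 1 array apart for 7 of them and 2 or 3 arrays for 6. For 0 of the 13 did that break part all 3 arrays of one group from all 3 of the other. For snx1.L, copg1.L and 1 probe set of vps18.S the arrays set apart were sex-reversed replicates 1 and 2. These were low for snx1.L and copg1.L and high for vps18.S. Among all probe sets 940 had such a range, and the same counts were 538, 395 and 7. A break along the groups was thus rare there too. The widest was ap3s2.S, a small subunit of AP-3, with 2.23, 7.24 and 3.09 in sex-reversed testis, against 2.87, 6.43 and 2.67 in normal testis. It was high in replicate 2 of both groups and low in the other 4 testes, with a break of 3.34 between them. A break of 3.36 parted the high from the low testes of copa.L. Breaks of at least 2 were also seen for vps4a.L, rhoa.L, tmed4.L and 1 probe set of cdc42.L. In all, 6 of the 13 had a break of that size, beside 189 of the 940 among all probe sets.

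**Figure D3:**
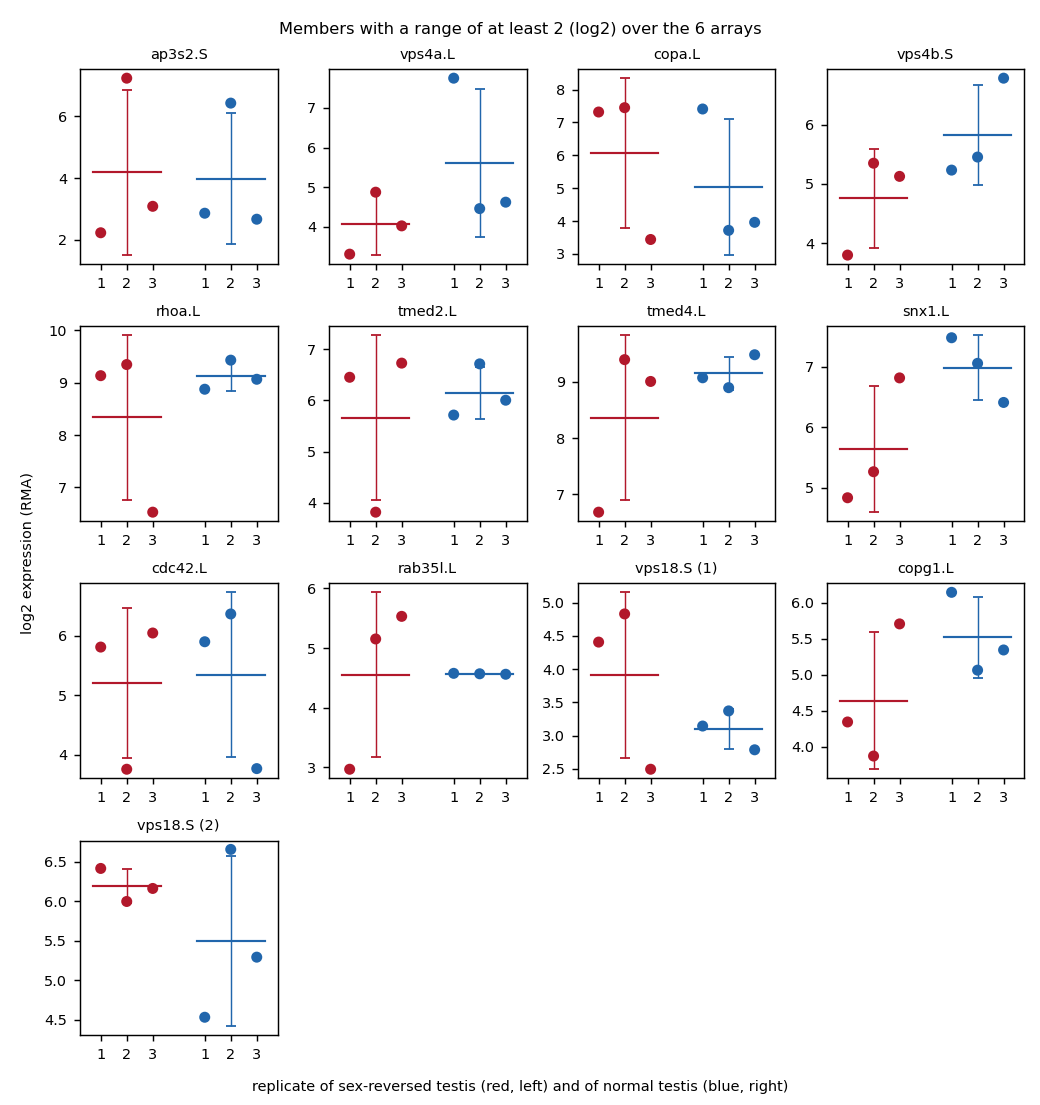
Log2 expression (y axes, RMA, scaled per panel) of the 13 probe sets with a range of at least 2 over the 6 arrays, in 3 sex-reversed testes (red, left) and 3 normal testes (blue, right); points are single arrays, lines group means and bars the SD. For ap3s2.S and copa.L high and low testes occur in both groups, and for rhoa.L and tmed4.L 1 sex-reversed testis is low. The panels of vps18.S show its 2 probe sets.

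Other probe sets of the same gene did not always show such a break. Cdc42, which sets cell polarity, was read by 5 probe sets of cdc42.L. One of them read 5.81, 3.75 and 6.05 in sex-reversed testis, against 5.90, 6.37 and 3.76 in normal testis, low in 1 testis of each group. The ranges of the other probe sets of cdc42.L were 0.35 to 0.70, and the 5 differences between the groups lay between -0.18 and -0.13. Similarly, 1 of 5 probe sets of tmed2.L, a p24 receptor, read 6.45, 3.82 and 6.73 in sex-reversed testis, against 5.71, 6.71 and 6.0 in normal testis. Sex-reversed replicate 2 was low in that probe set, while the other probe sets of tmed2.L ranged over 0.47 to 0.87. For vps4b.S 1 probe set read 3.80, 5.35 and 5.13 in sex-reversed testis, against 5.23, 5.45 and 6.79 in normal testis, a range of 2.99, and the other had a range of 0.80.

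**Figure D4:**
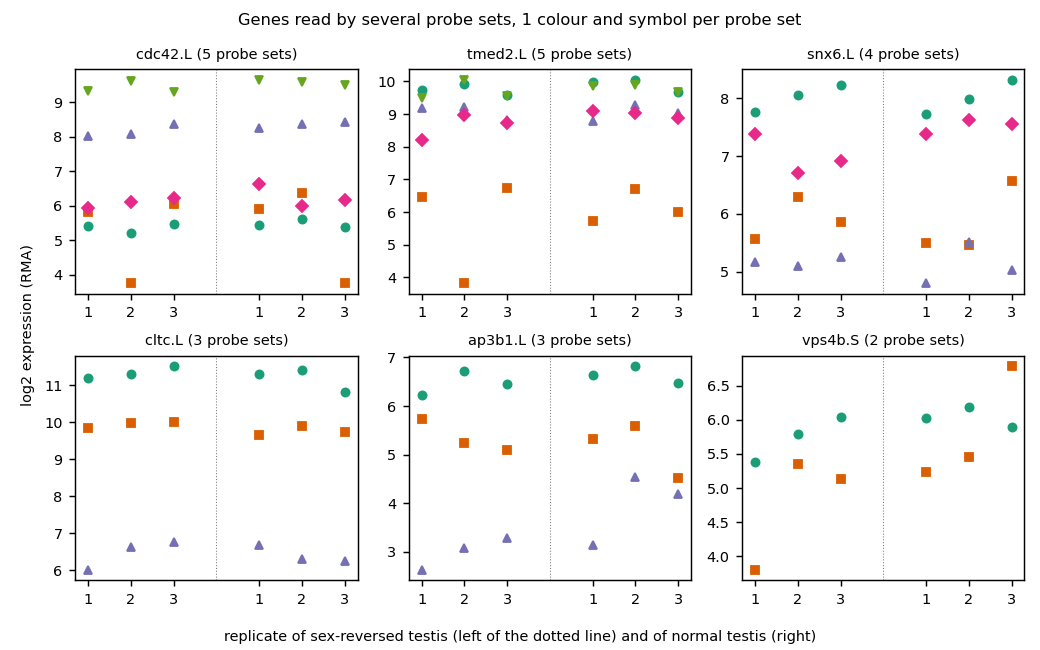
Log2 expression (y axes, RMA, scaled per panel) of 6 genes read by several probe sets, by replicate of sex-reversed testis (left of the dotted line) and normal testis (right); each colour and symbol is 1 probe set. For cdc42.L and tmed2.L 1 probe set is low in 2 arrays and in 1 array while the other probe sets of the gene vary by less than 1.

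The remaining wide probe sets, named after their values were seen, were rab35l.L, copg1.L and vps18.S. The probe set of rab35l.L read 2.97, 5.15 and 5.53 in sex-reversed testis, against 4.58, 4.57 and 4.56 in normal testis, so that the normal testes lay close together and sex-reversed replicate 1 was low. For copg1.L, another gamma subunit of COPI, the wide probe set read 4.35, 3.87 and 5.71 in sex-reversed testis, against 6.15, 5.07 and 5.35 in normal testis, and the groups overlapped. Both probe sets of vps18.S, a core subunit of the endosomal tethers, were wide. One read 4.41, 4.83 and 2.49 in sex-reversed testis, against 3.14, 3.37 and 2.79 in normal testis, and the other read 6.42, 6.0 and 6.16 in sex-reversed testis, against 4.53, 6.66 and 5.29 in normal testis. Their differences of 0.81 (95% interval -0.52 to 2.14) and 0.70 (95% interval -0.46 to 1.86) had the same sign but low values in different arrays. By its name the second of these is of a kind that may cross-hybridise.

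Over the 32 symbols with several probe sets, all probe sets of a symbol differed in 1 direction for 16 and in both directions for 16, with a median gap of 0.19 between the highest and lowest difference. L and S copies were both measured for 18 genes, of which 9 had copies of the same sign and 9 of opposite signs, with a median gap of 0.29. The gap was 0.96 for tmed4, with tmed4.S at 0.14 and 0.19 in its 2 probe sets. It was 0.80 for vps37b and 0.79 for snap25, where snap25.L was at -0.50 and snap25.S at 0.29. These pairs were picked after their values were seen, and cross-hybridisation between copies was not tested.

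Sex-reversed replicate 1 was the lowest of the 6 arrays for 61 of the 216 probe sets (28.2%), beside 17.6% of all probe sets. The array next most often lowest was normal replicate 1, for 50 (23.1%), beside 17.1%. Normal replicate 3 was the highest for 54 (25%), beside 16.5%. The mean deviation of the 216 from their own means was -0.13, 0.03 and -0.00 on the sex-reversed arrays, against -0.01, 0.07 and 0.04 on the normal arrays. Without sex-reversed replicate 1 the median difference of the 216 was 0.01. The sign of the difference changed with some array left out for 106 of the 216 (49.1%), beside 49.5% of all probe sets.

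Other genes of the pathway came from a list of 121 that the letters of the rule leave out (SNARE disassembly, GTPase regulators, Golgi and sorting proteins). Only 46 of the listed genes were measured, by 61 probe sets. Of the 61 probe sets 0 passed the adjusted threshold in limma, and 31 were higher and 30 lower, with a median of 0.01. At an unadjusted p under 0.05 in limma, 1 of the 61 was higher and 2 were lower, beside 2.26% and 2.16% of all probe sets. These 3 are given below because they had the smallest p of the list. The GTPase-activating gene arhgap1.L read 6.23, 5.35 and 6.28 in sex-reversed testis, against 5.15, 3.59 and 3.57 in normal testis. Each sex-reversed testis lay above each normal one, and the difference was 1.85 (95% interval 0.73 to 2.96, adjusted p of 0.997 in limma). All normal values of arhgap1.L were below the array medians, so the size of this difference is uncertain. Lower in sex-reversed testis were the Arf-binding gene arfip1.L, at -0.86, and the ESCRT-I gene mvb12a.L, at -1.08.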

How the data were processed

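RNA of 3 sex-reversed and 3 normal testes was labelled with biotin and read on 1-colour arrays. Values as deposited are on the log2 scale (11485 probe sets, 6 arrays), and the submitters' processing notes name RMA, with no version. RMA gives the arrays a shared distribution, which takes out any shift common to most genes. Symbols came from the platform annotation: 6798 probe sets had 1 symbol, 110 several and 4577 none. By their names, 12 of the 216 probe sets are of kinds that may cross-hybridise. All probe sets were fitted with limma 3.58.1 in R 4.3.3 (lmFit, eBayes; two-sided tests), and Benjamini-Hochberg adjustment ran over all 11485. Precision is limited by the number of arrays, and over the 216 probe sets the 95% interval reached a median of 0.61 to either side. Role groups follow symbol letters, and the counts of 2 of them are not reported here. Named were probe sets past the threshold, those whose groups do not overlap at a difference of at least 0.5 (up to 12 per direction), the smallest p per role group of at least 3, the 8 widest ranges, founding members of each class, and genes whose probe sets lie at least 1 apart. Members, lists and rules were chosen with earlier results of these data known. Alternatives were median centring, a further quantile normalization, a filter at the median level, trended and robust variance, no moderation, array weights, the replicate number as a block, each array left out, 1 probe set per symbol, the mean over copies, and the members without the 4 of other function. Neither labels nor table give a batch.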

Additional observations from a re-analysis of the deposited data

How the results depend on the processing

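The number of membrane traffic and small GTPase probe sets past an adjusted p of 0.05 in limma was 0 under all 16 alternatives run, and 0 of the 52 named probe sets were called under any of them. The count of 8 at an unadjusted p under 0.05 was 4 when probe sets below the median level were left out, so that fewer were tested (2.61%, beside 3.81% of all), and 5 without moderation (2.31%, beside 4.45%), and it ranged from 6 to 12 with 1 array left out (2.78% to 5.56%, beside 3.52% to 5.57%). The 9 probe sets whose groups do not overlap became 11 to 26 with 1 array left out (5.09% to 12%, beside 8.01% to 10.6% of all probe sets), where fewer values have to separate, and 6 to 10 otherwise (3.7% to 4.68%, beside 4.37% to 4.78%). The count of intervals within 2-fold lay between 103 and 145 (52.3% to 69.3%, beside 48.1% to 65.7%). The median difference of -0.05 was -0.10 to 0.01 with 1 array left out, above 0 only without sex-reversed replicate 1. With the replicate number as a block the counts were 0, 8, 143 and 9 for the adjusted threshold, the unadjusted threshold, intervals within 2-fold and groups that do not overlap. Deviations of same-numbered samples correlated at -0.01, -0.02 and 0.14, beside -0.16 to 0.15 for samples of unlike number. With 3 samples per group these values cannot decide whether the numbers pair the samples. Of the 52 named probe sets 18 changed sign with 1 array left out. Their ranges were -0.17 to 0.14 for arf6.2.L (the second probe set), -0.10 to 0.17 for arf6.S, -0.53 to 0.0183 for sar1a.S (the first), -0.0225 to 0.39 for sec23ip.S, -0.10 to 0.44 for ap3b1.L (the second), -1.33 to 1.42 for ap3s2.S, -0.00733 to 0.29 and -0.10 to 0.28 for cltc.L (the first and the third), -0.0937 to 0.15 and -0.25 to 0.20 for chmp4b.L, -0.0491 to 0.17 for rab1a.L (the first) and -0.17 to 0.24 for rab5a.L (the second). They were -0.93 to 0.58 and -0.30 to 0.0145 for cdc42.L (the second and the fourth), -1.29 to 0.12 for rhoa.L, -0.41 to 0.14 for stx5.L, -1.01 to 0.45 for tmed2.L (the second) and -1.31 to 0.0509 for tmed4.L. The second probe set of rab5a.L also turned to 0.00136 after a further quantile normalization and to 0.0557 with array weights, and the cause was not tested. Signal over background was not measured, and 25 of the 216 probe sets lay below the 25th percentile of the mean level, where a difference can be understated.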
